A study of Caenorhabditis elegans with 6 samples.

Results

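The 10 genes described here are known targets of DAF-16 outside the classical antioxidant enzymes: dod-3, icl-1, sip-1, scl-1, nnt-1, aqp-1, hil-1, old-1, gpd-2 and daf-15. They were taken by name from the gene table, which lists 46926 genes, and all 10 were found there. RNA came from whole N2 animals, the wild-type Caenorhabditis elegans strain, harvested between late L4 and young adulthood after 5 hours in 25 µM chaetocin (3 libraries) or in the vehicle DMSO (3 libraries). Both groups were kept in NGM buffer with heat-treated OP50 bacteria as food. The comparison asks which RNAs differ after a short exposure to chaetocin, a toxin from fungi that blocks lysine methyltransferases. The labels call the libraries biological replicates without saying that each had its own culture, and the p-values therefore reflect only how far these libraries spread, which may be technical.

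DAF-16 is the worm's FOXO transcription factor. Signalling through the insulin receptor DAF-2 keeps it phosphorylated and out of the nucleus, and when that signalling is low it enters the nucleus and changes the expression of genes for stress resistance, metabolism and longevity. Several of the 10 genes are known for higher RNA when DAF-16 is active, whereas daf-15 is known as a gene that DAF-16 represses. The genes code for metabolic enzymes, a membrane channel, secreted or uncharacterised proteins, a chaperone, a linker histone-like protein and parts of signalling pathways.

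With chaetocin, 4 of the 8 members that could be tested were lower and 0 were higher. The uncharacterised gene dod-3 fell most, to 144 ± 12.21 FPKM, against 496 ± 10.9 FPKM with DMSO (SD, n = 3 each). The glyoxylate cycle gene icl-1, the water and glycerol channel gene aqp-1 and the mitochondrial transhydrogenase gene nnt-1 also fell. The small heat shock gene sip-1, the linker histone-like gene hil-1, the glycolytic gene gpd-2 and the TOR complex gene daf-15 did not pass the test. old-1 and scl-1 were too low to be tested. FPKM is a fragment count divided by transcript length and library size, here scaled between libraries. A gene was called when its adjusted p was under 0.05 in limma, a linear model fitted across all 15213 genes that reached 0.5 FPKM in 3 or more libraries. Among all those genes 3.02% were called lower and 5.48% higher, and 8.49% in either direction.

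The animals are bulk samples, so fewer cells of a type and less RNA per cell cannot be told apart. The libraries each listed 18747 to 18933 genes above 0, and ribosomal RNA took between 0.755 and 4.13% of FPKM, with the highest share in chaetocin replicate 2. Over all genes 833 were called higher and 459 lower. With libraries set to equal median levels instead, 694 were higher and 821 lower. Markers of oocytes and early embryos (14 genes), sperm (8), muscle (6), epidermis (5) and neurons (6) were all detected, and 0 of them were called in limma (at an unadjusted p under 0.05, 2 sperm, 1 epidermal and 1 neuronal marker passed). The sperm markers summed to between 174.5 and 206 FPKM with chaetocin and between 151 and 171 FPKM with DMSO, without overlap. Their median log2 fold change was 0.23. Of 8 intestinal markers 4 were called higher (3 on unscaled FPKM or with equal medians) and 1 lower. The summed level of the intestinal markers was between 579.9 and 597 FPKM with chaetocin and between 371 and 372 FPKM with DMSO, and act-5, an actin of the intestinal brush border, supplied most of the gap (244 ± 4.05 FPKM with chaetocin and 60.8 ± 6.88 FPKM with DMSO). The intestinal regulator elt-2 had 10.4 ± 0.206 FPKM with chaetocin and 11.1 ± 0.193 FPKM with DMSO and was not called (limma, adjusted p = 0.4001). The part that shifts between tissues play in the values below was not tested.

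**Figure D1:**
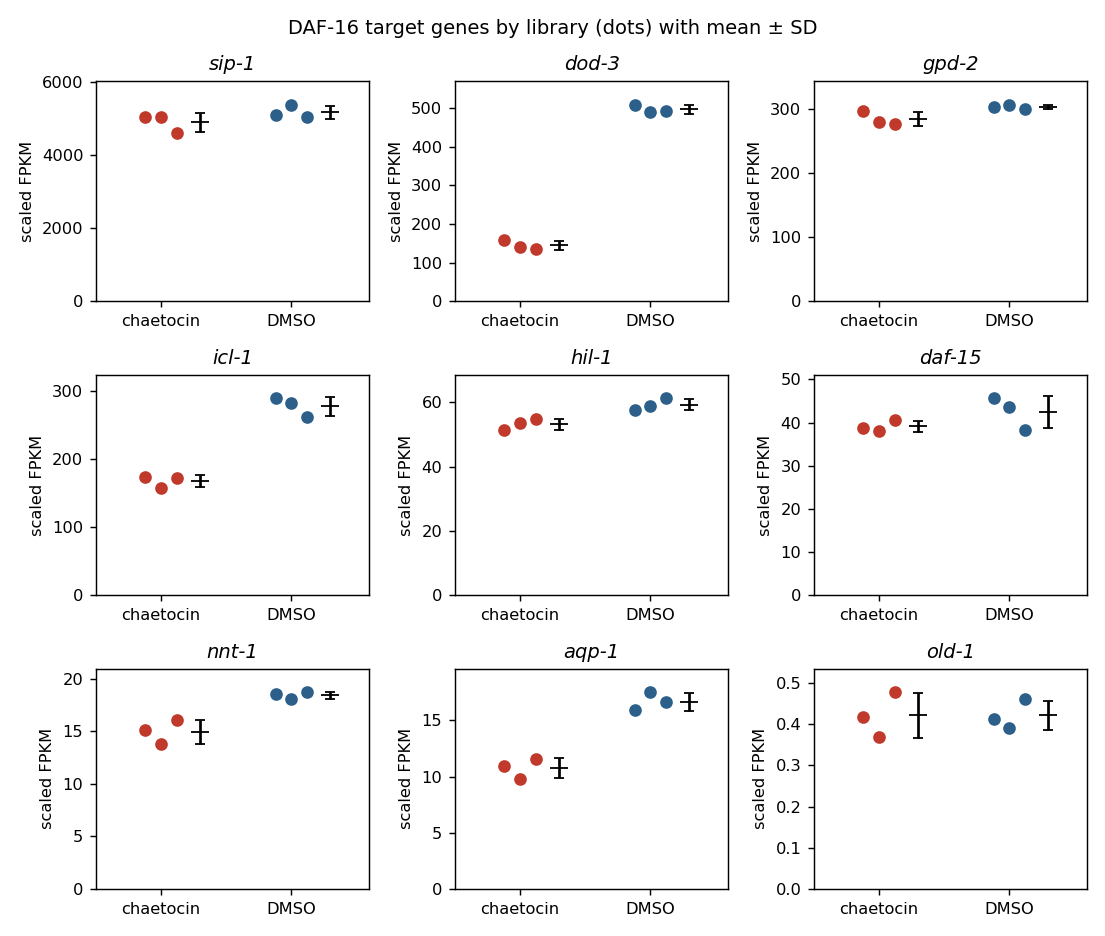
Scaled FPKM (vertical axis, starting at 0) of 9 DAF-16 target genes in each of the 3 chaetocin and 3 DMSO libraries (dots), with mean ± SD beside them. The chaetocin libraries of dod-3 lie between 135 and 158 FPKM, all below the DMSO libraries at 488 to 508; scl-1, listed above 0 in 1 library, is not drawn.

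The levels of the 10 genes spanned a wide range. On the scale of FPKM, which divides by transcript length, sip-1 was far above the others, with a mean of 5044 over the 6 libraries and a place above 99.8% of the tested genes. With DMSO, dod-3 was the second highest at 496 FPKM, followed by gpd-2 at 303 and icl-1 at 278 FPKM. With chaetocin, gpd-2 at 284 FPKM stood above icl-1 at 168 and dod-3 at 144 FPKM, and the ranges of icl-1 and dod-3 overlapped there (157 to 174 and 135 to 158 FPKM). In both groups hil-1, daf-15, nnt-1 and aqp-1 came next in that order, without overlap between neighbours in that order in either group. old-1 and scl-1 were lowest, with means of 0.421 and 0.0134 FPKM over the 6 libraries.

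Among the metabolic enzymes, icl-1 showed the larger change. It codes for the enzyme of the glyoxylate cycle that carries both isocitrate lyase and malate synthase activity and lets worms make sugar from stored fat. icl-1 (WBGene00001564; chromosome V, 724332 to 728004, minus strand, WBcel235) had 174, 157 and 172 FPKM in the chaetocin libraries 1 to 3, against 289, 282 and 262 FPKM in the DMSO libraries 1 to 3. The groups did not overlap, and the highest chaetocin library lay well below the lowest DMSO library. The log2 fold change was -0.73 ± 0.05 (standard error; limma, adjusted p = 0.000296), with a 95% interval from -0.86 to -0.60, and the mean with chaetocin was 0.603 times that with DMSO.

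nnt-1 codes for the nicotinamide nucleotide transhydrogenase of the inner mitochondrial membrane, which makes NADPH at the expense of the proton gradient. nnt-1 (WBGene00003778; chromosome X, 6122311 to 6127554, plus strand) had 15.1, 13.7 and 16.03 FPKM with chaetocin, against 18.5, 18.02 and 18.7 FPKM with DMSO. All chaetocin libraries were below all DMSO libraries, and the chaetocin libraries spread more widely. The log2 fold change of -0.30 ± 0.07 passed narrowly (limma, adjusted p = 0.0410; 95% interval -0.46 to -0.14). The direction held under all 13 alternatives, with log2 fold changes between -0.38 and -0.24, but the call was made under 5 of them. The other scalings and the replicate block could not turn its direction. Without scaling its adjusted p was 0.0592 and without a filter 0.0519, and it was also lost without chaetocin replicate 1 or 2 (0.117 and 0.0952) and without DMSO replicate 1, 2 or 3 (0.126, 0.1025 and 0.0884).

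gpd-2 codes for glyceraldehyde-3-phosphate dehydrogenase, the glycolytic enzyme. gpd-2 (WBGene00001684; chromosome X, 3113443 to 3114689, minus strand) had 297, 279.7 and 276 FPKM with chaetocin, against 303, 307 and 299 FPKM with DMSO. The groups lay close together without overlap. Its log2 fold change of -0.09 ± 0.04 missed the threshold (limma, adjusted p = 0.193; 95% interval -0.18 to -0.01) and passed only with libraries set to equal medians (-0.17, adjusted p = 0.0436). gpd-2 and the adjacent gpd-3 are near-identical copies, so the division of fragments between them is uncertain. Their sum was 789.8, 757 and 762 FPKM with chaetocin, against 832, 823 and 789.6 FPKM with DMSO.

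The channel gene aqp-1 codes for an aquaglyceroporin, which passes water and glycerol. aqp-1 (WBGene00000169; chromosome II, 7235828 to 7238349, minus strand) had 10.9, 9.78 and 11.5 FPKM with chaetocin, against 15.9, 17.5 and 16.6 FPKM with DMSO. The groups did not overlap. The log2 fold change was -0.63 ± 0.08 (limma, adjusted p = 0.00333; 95% interval -0.82 to -0.45), and the mean with chaetocin was 0.644 times that with DMSO. This interval overlaps that of icl-1, and the difference between both changes was not tested.

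Of the genes for secreted or uncharacterised proteins, dod-3 carried the largest change of the set. Its name stands for downstream of DAF-16, and the function of its product is not established. dod-3 (WBGene00016052; chromosome V, 2730622 to 2731098, minus strand) had 158, 140.1 and 135 FPKM with chaetocin, against 508, 488 and 491 FPKM with DMSO. The highest chaetocin library was far below the lowest DMSO library. Its log2 fold change was -1.78 ± 0.06 (limma, adjusted p = 1.04e-05; 95% interval -1.93 to -1.64), with a mean 3.43 times lower with chaetocin, and dod-3 stood at place 26 among the 459 genes called lower when these were ordered by fold change. Its interval did not meet that of any other tested member.

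scl-1 codes for a secreted protein of the SCP family, of the type found in sperm-coating and venom-allergen proteins, and is known as a gene needed for the long life of insulin receptor mutants. scl-1 (WBGene00004742; chromosome IV, 13056326 to 13057351, plus strand) was listed at 0 in all 3 chaetocin libraries, against 0.0804, 0 and 0 FPKM in the DMSO libraries. No fold change is given, and a gene listed at 0 in a table without counts is not shown to be absent.

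The chaperone gene sip-1 codes for a small heat shock protein known for its expression in the germline and embryos. sip-1 (WBGene00004798; chromosome III, 10506106 to 10506801, minus strand) had 5054, 5058 and 4611 FPKM with chaetocin, against 5103, 5392 and 5048 FPKM with DMSO. The groups overlapped. The difference on the log2 scale was -0.08 ± 0.05 (limma, adjusted p = 0.466), and its 95% interval allows ratios of chaetocin to DMSO between 0.868 and 1.03. The oocyte and early embryo markers summed to between 6655 and 6725 FPKM with chaetocin and between 6681 and 7148 FPKM with DMSO, with a median log2 fold change of -0.07.

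hil-1 codes for a linker histone-like protein. Typical members of that family bind DNA between nucleosomes, and whether this protein does so is not shown here. hil-1 (WBGene00001852; chromosome V, 14949777 to 14952799, plus strand) had 51.3, 53.6 and 54.8 FPKM with chaetocin, against 57.8, 59.02 and 61.3 FPKM with DMSO. The groups were separate but close. Its log2 fold change of -0.16 ± 0.04 missed the threshold (limma, adjusted p = 0.0694; 95% interval -0.25 to -0.06) and passed with libraries set to equal medians (-0.23, adjusted p = 0.0156).

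Of the signalling genes, daf-15 codes for the worm's Raptor, the subunit that lets TOR complex 1 bind its substrates. daf-15 (WBGene00000911; chromosome IV, 9386208 to 9394979, plus strand) had 38.6, 38.1 and 40.5 FPKM with chaetocin, against 45.6, 43.5 and 38.2 FPKM with DMSO. DMSO replicate 3 lay within the range of the chaetocin libraries. The difference on the log2 scale was -0.11 ± 0.07 (limma, adjusted p = 0.423), with ratios between 0.823 and 1.04 inside the 95% interval. Among the 8 tested members, daf-15 had the most variable DMSO libraries, with a coefficient of variation of 8.95%, against between 1.18 and 5.01% for the others in DMSO.

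old-1 codes for a receptor tyrosine kinase known for longer life when overexpressed. old-1 (WBGene00003862; chromosome II, 9866464 to 9868747, minus strand) had 0.418, 0.369 and 0.477 FPKM with chaetocin, against 0.412, 0.392 and 0.460 FPKM with DMSO. The groups overlapped throughout, and both means were 0.421 FPKM. It lay below the filter of 0.5 FPKM. In a fit without the filter its log2 fold change was -0.004 ± 0.21 (limma, adjusted p = 0.996), and the 95% interval reached ratios from 0.706 to 1.41.

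**Figure D2:**
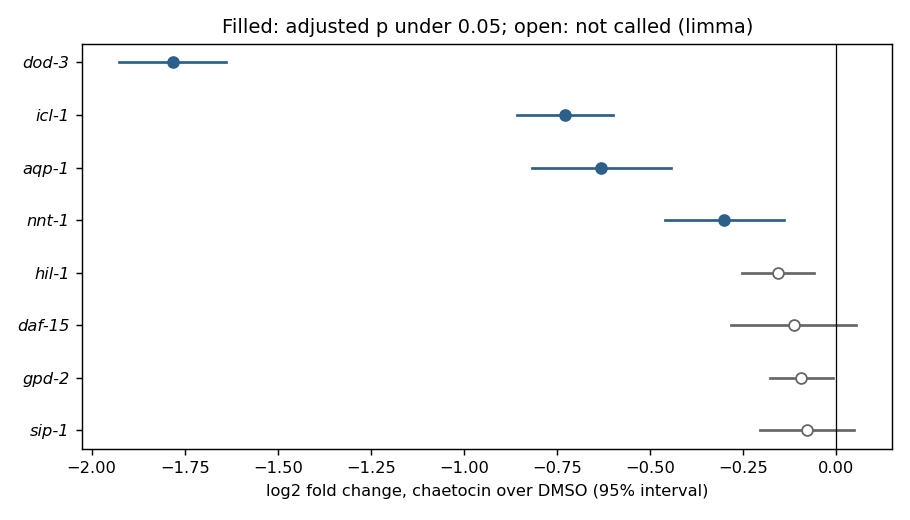
Log2 fold change of chaetocin over DMSO (horizontal axis) with its 95% interval for the 8 tested DAF-16 target genes, from 3 libraries per group. Filled blue points were called lower and open grey points were not called; the interval of dod-3, from -1.93 to -1.64, stands apart from the other 7.

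Set against all genes, all 8 tested members had a log2 fold change below 0, where 51.1% of all tested genes did. The members' median was -0.23 and that of all tested genes -0.004. Small values below 0 were not particular to the members. The 14 oocyte and early embryo markers, with 0 called, lay between -0.10 and -0.02, whereas the sperm markers had a median of 0.23. Under each of the 13 alternatives the 8 log2 fold changes stayed below 0. Some of these could not turn a sign. The all-gene median was lower on unscaled FPKM (-0.016) and with equal medians (-0.078), and the replicate block leaves fold changes as they are. In 6 of the 8 the groups did not overlap, all lower with chaetocin, and 26.3% of all tested genes had groups that did not overlap in either direction. The share of all tested genes separated in the lower direction alone was not counted. At an unadjusted p under 0.05 in limma 6 of the 8 were lower, where 9.18% of all tested genes were lower and 20.5% passed in either direction. These counts describe a set that was chosen with results of these data known.

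In the authors' deposited table, turned so that negative values mean lower with chaetocin, 9 of the members were listed and 4 had a p-value under 0.05, all lower. By that rule 9.06% of its 16062 genes passed, and 3.49% passed as lower. The members' p-values there are larger than their log2 fold changes and standard errors alone would give, as adjusted values would be. In the authors' deposited table dod-3 had a log2 fold change of -1.78 ± 0.08 (standard error, p = 2.64e-111), icl-1 -0.73 ± 0.08 (p = 1.37e-16), aqp-1 -0.64 ± 0.10 (p = 1.09e-08) and nnt-1 -0.30 ± 0.08 (p = 0.0014). hil-1 had a p-value of 0.0937 in the authors' deposited table, daf-15 0.368, gpd-2 0.546, sip-1 0.617 and old-1 0.995. The mean normalized count in the authors' deposited table was 26.8 for old-1 and 382 for aqp-1, and between 1500 for hil-1 and 82143 for sip-1 among the others. The precision for old-1 is accordingly lower, with a standard error of 0.40 in the authors' deposited table.

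The transcript table splits 3 of the members into isoforms, estimated by the authors' software from fragments that several isoforms share. For icl-1, the isoform C05E4.9a.1 took between 98.4 and 98.8% of the gene's FPKM in every library. C05E4.9a.1 fell by 0.73 ± 0.05 on the log2 scale (limma over 21002 transcripts, adjusted p = 0.00105), and the minor isoform C05E4.9b.1 had 2.42, 1.95 and 2.54 FPKM with chaetocin, against 4.12, 4.54 and 3.57 FPKM with DMSO (log2 fold change -0.80 ± 0.16, limma adjusted p = 0.0551). Among all transcripts 4.69% were called, and 1.52% were called lower.

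For aqp-1 the split between isoforms was unstable between libraries of 1 group. F32A5.5a.1 took 100, 71.5 and 42.4% of the gene's FPKM with chaetocin, and 92.8, 74.0 and 100% with DMSO. Neither F32A5.5a.1 (log2 fold change -1.02 ± 0.29; limma, adjusted p = 0.147) nor F32A5.5b.1 (0.58 ± 2.02, adjusted p = 0.924) was called, so the change of aqp-1 rests on the gene's sum. For daf-15 the isoforms C10C5.6a.1, C10C5.6b.1 and C10C5.6e.1 took nearly all the FPKM, with limma adjusted p between 0.761 and 0.951. C10C5.6c.1 and C10C5.6d.1 were below the filter, and C10C5.6d.1 stood at 2.89 FPKM in DMSO replicate 1 and at no more than 0.0615 FPKM in the other libraries. The transcript of dod-3 was called lower as the gene was (C24B9.9.1, limma adjusted p = 6.54e-05), whereas that of nnt-1 was not (C15H9.1.1, -0.30 ± 0.07, adjusted p = 0.0852).

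**Figure D3:**
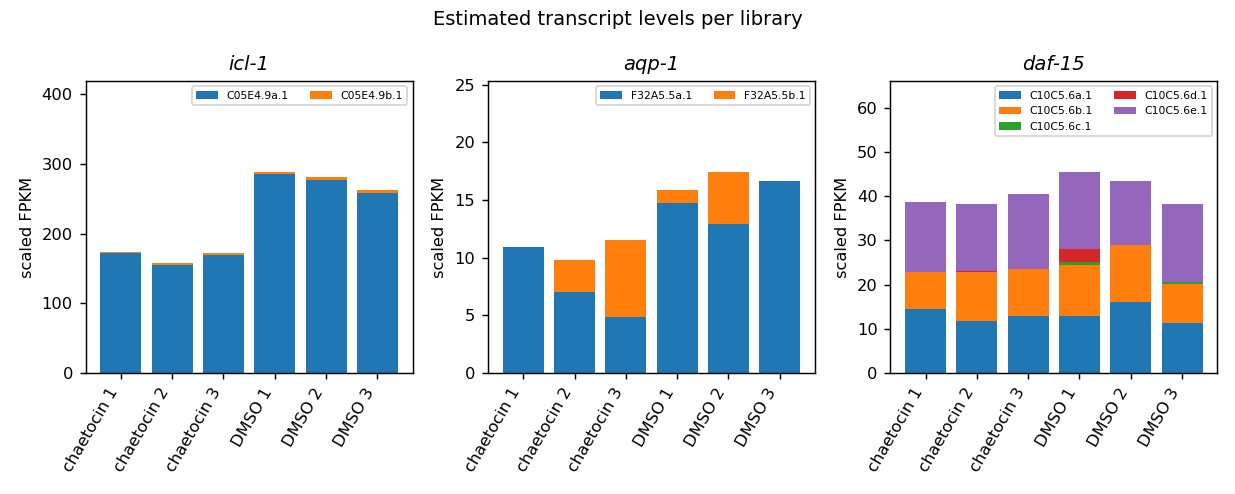
Scaled FPKM (vertical axis) of the listed transcripts of icl-1, aqp-1 and daf-15, stacked in 1 bar per library. The bars of icl-1 are nearly all C05E4.9a.1, while the share of F32A5.5a.1 in aqp-1 goes from 42.4 to 100% within the chaetocin libraries.

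Exons of other genes overlap 6 of the members. For sip-1, aqp-1, nnt-1 and daf-15 the partner lies on the other strand, and no source used here says whether counting used strand. For old-1 (chil-1) and gpd-2 (mai-1) it lies on the same strand, so strand could not separate the fragments of the shared bases. The shared exonic stretch was 123 bases of sip-1 (19.2% of its exonic bases, with the noncoding RNA F43D9.8), 93 bases of aqp-1 (9.01%, with ctsa-3.1) and at most 1.91% of old-1, gpd-2, daf-15 or nnt-1. For aqp-1 the partner ctsa-3.1, on the other strand, had between 4.74 and 4.96 FPKM with chaetocin and between 4.84 and 5.83 FPKM with DMSO and was not called (limma, adjusted p = 0.611). For nnt-1 the partner C15H9.9 was higher than nnt-1 itself, between 164 and 169 FPKM with chaetocin and between 152 and 164 FPKM with DMSO, and shared 27 exonic bases. dod-3, icl-1, hil-1 and scl-1 had no overlapping gene.

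Around the members, the nearest tested gene on each side was looked up. Beside dod-3, C24B9.3, 19023 bases away on the same strand, was lower as well, with 23.5, 23.6 and 21.5 FPKM with chaetocin, against 38.9, 41.1 and 38.9 FPKM with DMSO (log2 fold change -0.79; limma, adjusted p = 0.000181), and R05D8.7 on the other side was not called (adjusted p = 0.761). Beside scl-1, scl-2, 359 bases away, was lower. Beside icl-1, ugt-29, 24743 bases away, was higher (0.52, limma adjusted p = 0.022), and srh-2, 297 bases away, was not called (adjusted p = 0.134). None of the tested neighbours of aqp-1 or nnt-1 were called (limma, adjusted p between 0.0582 and 0.965).

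The genes whose pattern over the 6 libraries was most like that of dod-3 were F45D11.14, the metallothionein gene mtl-1 and the C-type lectin gene clec-218. Likeness was the root mean square distance between log2 values centred on each gene's own mean, among 7867 genes with a mean of at least 10 FPKM, and was 0.0554, 0.0809 and 0.124 on the log2 scale. F45D11.14 had 98.6, 94.1 and 92.3 FPKM with chaetocin, against 337, 343 and 339.98 FPKM with DMSO. mtl-1 had 294, 285 and 268 FPKM with chaetocin, against 1011, 976 and 1104 FPKM with DMSO. clec-218 had 9.896, 10.7 and 11.2 FPKM with chaetocin, against 37.8, 34.01 and 35.2 FPKM with DMSO. The choice of these 3 genes fixes that their fold changes are near that of dod-3, and their levels differ widely.

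Other genes downstream of DAF-16 went both ways. Of 8 tested genes named dod, dod-3 was the 1 that fell and 4 rose. The 4 that rose are all known as lowered by DAF-16. dod-23 had 166, 175 and 195 FPKM with chaetocin, against 47.4, 45.1 and 51.8 FPKM with DMSO (log2 fold change 1.89 ± 0.07; limma, adjusted p = 1.94e-05). dod-22 rose by 0.74 on the log2 scale and dod-24 by 0.34, and dod-17 rose by 1.71 in a call that was lost without chaetocin replicate 1, 2 or 3 or DMSO replicate 1 (adjusted p up to 0.0770). These directions were the same on unscaled FPKM and with equal medians.

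Of 13 tested genes known as raised by DAF-16 outside the 10, 5 fell and 3 rose, with a median log2 fold change of -0.17. Besides mtl-1, the cytochrome P450 gene cyp-34A9 had 15.5 ± 0.196 FPKM with chaetocin and 38.6 ± 1.11 FPKM with DMSO and fell by 1.32 ± 0.04 on the log2 scale (limma, adjusted p = 9.18e-06), and the lysozyme gene lys-7 fell by 0.84 on the log2 scale. The saposin-like gene spp-1 went the other way, with 634 ± 13.1 FPKM with chaetocin and 383 ± 7.43 FPKM with DMSO. Of 11 tested genes known as lowered by DAF-16, 6 rose and 3 fell, with a median of 0.34. Among all tested genes 5.48% were called higher and 3.02% lower, with a median of -0.004. The list of lowered genes shares dod-17, dod-22, dod-23 and dod-24 with the genes named dod. It also shares ges-1 and pept-1 with the intestinal markers above. The list of raised genes shares hsp-12.3, hsp-12.6, hsp-16.1 and hsp-16.49 with the small heat shock genes below. Of these, hsp-12.6 was called higher and is counted in both. The nuclease gene nuc-1 rose (150 ± 1.15 FPKM with chaetocin and 90.7 ± 1.42 FPKM with DMSO), and the peptide transporter gene pept-1 fell (8.84 ± 0.621 FPKM with chaetocin and 13.7 ± 0.0348 FPKM with DMSO). The numbers lower in these lists were the same under the other scalings, and with equal medians 4 genes of the raised list were higher.

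The insulin pathway itself showed 1 call among 22 tested genes. akt-2, a kinase that phosphorylates DAF-16, rose to 16.8 ± 0.347 FPKM with chaetocin, against 13.3 ± 0.499 FPKM with DMSO (log2 fold change 0.33 ± 0.05; limma, adjusted p = 0.0101). daf-16 had 74.4, 73.5 and 78.2 FPKM with chaetocin, against 88.5, 88.2 and 76.1 FPKM with DMSO, so that DMSO replicate 3 lay among the chaetocin libraries. Its log2 fold change of -0.16 ± 0.07 missed the threshold (limma, adjusted p = 0.238) and passed without DMSO replicate 3 (adjusted p = 0.0206). The receptor gene daf-2 had 50.7 ± 2.89 FPKM with chaetocin and 55.1 ± 3.72 FPKM with DMSO (limma, adjusted p = 0.378). pqm-1, a zinc finger factor that acts in opposition to DAF-16, had 42.6 ± 1.55 FPKM with chaetocin and 43.7 ± 2.81 FPKM with DMSO (limma, adjusted p = 0.792). RNA levels do not show whether DAF-16 was in the nucleus. Of 17 tested genes of TOR signalling, daf-15 included, 0 were called in limma (2 at unadjusted p under 0.05), also under the other scalings.

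**Figure D4:**
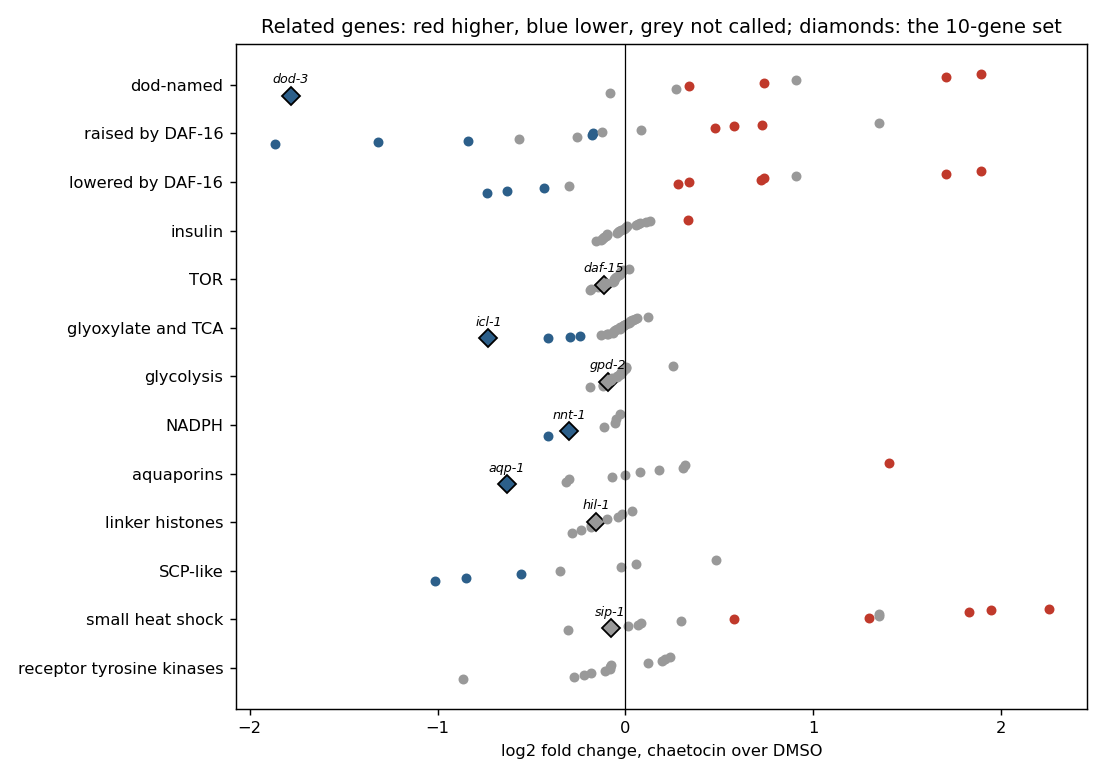
Log2 fold change of chaetocin over DMSO (horizontal axis) for each tested gene of 13 related lists (rows), with 1 point per gene. Red points were called higher, blue lower and grey not called, and diamonds mark members of the 10-gene set. dod-3 stands at -1.78, and dod-23, known as lowered by DAF-16, stands at 1.89.

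Of 27 tested genes of the glyoxylate and tricarboxylic acid cycles and of sugar synthesis, 4 fell and 0 rose, or 5 fell on unscaled FPKM and 6 with equal medians. icl-1 had the lowest log2 fold change of these. The others that fell were pck-1, a phosphoenolpyruvate carboxykinase gene (70.8 ± 1.18 FPKM with chaetocin and 87.0 ± 2.696 FPKM with DMSO), the cytosolic aconitase gene aco-1 (30.03 ± 0.454 FPKM with chaetocin and 35.5 ± 0.964 FPKM with DMSO) and idh-1, a cytosolic isocitrate dehydrogenase gene that makes NADPH (182 ± 2.47 FPKM with chaetocin and 243 ± 24.9 FPKM with DMSO). The aco-1 call was lost without chaetocin replicate 1 or 2 and the idh-1 call without chaetocin replicate 1, 2 or 3 or DMSO replicate 1 (adjusted p up to 0.0552 for aco-1 and 0.0621 for idh-1). Among 6 NADPH-producing genes, nnt-1 and idh-1 were the 2 that fell, and on unscaled FPKM 1 fell.

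Of 22 tested glycolytic genes 0 were called in limma (7 at unadjusted p under 0.05), and 4 were lower with equal medians. The paralogs of gpd-2 were close in both groups: gpd-1 had 425 ± 14.9 FPKM with chaetocin and 461 ± 6.47 FPKM with DMSO, gpd-3 had 485 ± 8.01 and gpd-4 228 ± 12.5 FPKM with chaetocin, and with DMSO gpd-3 had 512 ± 19.8 and gpd-4 242 ± 9.47 FPKM. gpd-1 and gpd-4 are near-identical copies too, so their separate levels are uncertain.

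Of 10 tested aquaporins, aqp-1 was the 1 that fell and aqp-10 the 1 that rose, also under the other scalings. aqp-10 had 85.8, 89.4 and 89.5 FPKM with chaetocin, against 32.96, 31.6 and 35.6 FPKM with DMSO (log2 fold change 1.40 ± 0.05; limma, adjusted p = 1.48e-05). Of 9 genes of the linker histone family 0 were called in limma (1 at unadjusted p under 0.05, hil-1), and hil-1 alone with equal medians.

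While scl-1 was near 0, 3 of the 7 tested genes of the SCP-like family fell and 0 rose, also under the other scalings. scl-2 had 289, 279.8 and 292 FPKM with chaetocin, against 429, 396 and 442 FPKM with DMSO (log2 fold change -0.56 ± 0.05; limma, adjusted p = 0.000478). scl-3 fell by 0.85 and scl-5 by 1.01 on the log2 scale, and in both the groups did not overlap. A further 19 of the 26 family members, scl-1 among them, were below the filter.

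Of 13 tested small heat shock genes 5 rose and 0 fell, or 7 rose with equal medians, and sip-1 was not among them. hsp-17 had a log2 fold change of 1.29 ± 0.08, hsp-16.11 of 1.83 ± 0.31, hsp-16.41 of 1.94 ± 0.34 and hsp-16.2 of 2.25 ± 0.43. Copies of hsp-16 genes are nearly alike in sequence, which leaves their separate levels uncertain, and each of these hsp-16 calls was lost without 1 or more of the chaetocin libraries (adjusted p up to 0.0798). The highest mean of these genes with chaetocin was 31.9 FPKM, for hsp-17, where sip-1 had 4908 FPKM. Of 12 tested receptor tyrosine kinase genes 0 were called in limma (2 at unadjusted p under 0.05), or 1 lower with equal medians, and old-2, the close relative of old-1, was listed at 0 in 5 of 6 libraries.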

How the data were processed

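The gene and transcript tables the authors deposited have 1 column per library and were read as FPKM from their values, since no header names the unit. They hold no counts, so the depth of each library is not given; counts appear only as means over libraries in the comparison table below. Per the submitters' processing notes, the build was WBcel235 and the tools included RSEM 1.3.1, STAR 2.7.9a, Trimmomatic 0.36, MultiQC and FastQC 0.11.4. Another table deposited by the authors holds log2 fold changes of DMSO over chaetocin, their standard errors, a column headed as p-value and mean normalized counts for 16062 coding genes. Which software made it is not stated in any source used here, nor is whether its p-values are adjusted. The members' values are larger than log2 fold change over standard error would give, as adjusted values would be. For example, hil-1 has -0.160 with a standard error of 0.0618 and is listed there at 0.0937. The sign of its log2 values was turned. Positions and exons came from the Ensembl annotation of WBcel235, which held all 46926 identifiers.

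Tests covered genes that reached 0.5 FPKM in 3 or more libraries. A trimmed mean of log ratios, without weights, set the scale of each library (30% of ratios and 5% of means trimmed at each end), with factors between 0.977 and 1.02. limma 3.58.1 in R 4.3.3 was fitted to log2(FPKM + 0.1) with a variance trend, and 2-sided p-values were adjusted by the Benjamini-Hochberg method over all genes, with a threshold of 0.05. This scale understates the change of low genes. Ratios are of mean scaled FPKM. The fit was tested on simulated data without library effects and with spreads shuffled between genes. That run therefore does not test the choice of scaling.

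Named beside the 10 members are up to 4 called genes per related list with the smallest adjusted p, the 3 genes most like dod-3, and daf-16, daf-2 and pqm-1. Neighbours, gpd copies, elt-2, act-5 and old-2 were chosen after values were seen. The members and lists were chosen with earlier results of these data known. Alternatives were pseudocounts of 1 and 0.01, no filter or at least 2 FPKM, unscaled FPKM, equal medians, the replicate number as a block, and each library left out.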

Additional observations from a re-analysis of the deposited data

How the results depend on the processing

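Of the members, dod-3, icl-1 and aqp-1 were called lower under all 13 alternatives, with highest adjusted p of 0.000563, 0.00422 and 0.0276 in limma. 0 members were higher under any, and 4 members were lower, against 6 with equal medians and between 3 and 4 without 1 library. The nnt-1 call was lost under 8 alternatives, and hil-1 and gpd-2 passed only with equal medians. Over all genes, 459 were lower, against 821 with equal medians, 257 with the replicate block and between 281 and 506 without 1 library, with 297 without chaetocin replicate 2 and 281 without DMSO replicate 2. Between 596 and 846 were higher without 1 library. Of the genes of the related lists outside the members, 14 were lower, against 9 with the replicate block and between 9 and 19 without 1 library, the lowest without chaetocin replicate 2. The log2 fold change of pqm-1 was between -0.0857 and 0.0072 without 1 library and turned positive without DMSO replicate 2. The cause was not tested.

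The deposited names of DMSO replicates 1 to 3 are NA1, NA3 and NA4. Those of chaetocin replicates 1 to 3 are NB1, NB2 and NB3. The deviations of same-numbered libraries had correlations across genes of 0.106, 0.0668 and -0.0265. Differently numbered libraries had correlations between -0.150 and 0.0780, with -0.0155 for NA3 and NB3. These values do not decide whether the libraries were paired, since replicates 2 and 3 join names with different numbers. The replicate block tested this matching only. With the number as a block, nnt-1 (adjusted p = 0.0839), dod-24 (0.0518), akt-2 (0.0534) and aco-1 (0.0724) were not called. The depth of each library is not given. old-1 was compared only without the filter and in the authors' deposited table, with wide errors, and scl-1 allows no comparison.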
